A study of Mus musculus with 40 samples.

Results

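C/EBPb peaks that lay inside or across the edge of a SMARCA5 peak, but shared no base with a PU.1 or CTCF peak, are described here in mouse bone marrow-derived macrophages. They were picked by position from the consensus peak lists: at least 1 bp in common with SMARCA5, no base in common with the other lists, on chromosomes 1 to 19 and X. This gave 4426 sites, 14.3% of the 30895 C/EBPb peaks on those chromosomes and part of a list of 30960. Because the overlaps chose the sites, the number of sites is a description and not a finding. The label of these sites as free of PU.1 holds only at the peak itself: 2967 of them had a PU.1 peak elsewhere in the same SMARCA5 peak.

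The cells came from Csf1r-Cre wild-type mice or from Smarca5lox/lox Csf1r-Cre knockout mice, so both genotypes carried the Cre, which is driven by a macrophage lineage gene. Marrow was differentiated over 7 days with 4-hydroxytamoxifen given daily to both. C/EBPb, PU.1 and CTCF had 4 libraries each, 2 wild-type and 2 Smarca5-/-, all untreated, while SMARCA5 had 8 libraries after micrococcal nuclease digestion, 2 per genotype without stimulus and 2 per genotype after 2 h of lipopolysaccharide (LPS) at 10 ng/ml. Each protein has 1 consensus list for the series on mm39, and no value belongs to a library. How a list combines libraries, genotypes and stimuli is not given. For these reasons genotype, stimulus and the labelled cell type could not be compared or checked. Read depth is unknown, and no difference between classes of peaks could be tested over replicates. Intervals given below are 95% intervals for the counting of peaks only (Wilson for shares, order statistics for medians). A site missing from the PU.1 list is a site without a PU.1 call, not one shown to be unbound.

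C/EBPb is a leucine zipper factor that binds DNA as a dimer, and in macrophages it often occupies enhancers next to the ETS factor PU.1, which fixes myeloid identity. SMARCA5, also called SNF2H, is the ATPase of the ISWI complexes, which slide and space nucleosomes. CTCF is a zinc-finger protein known for insulators and loop anchors.

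Most of these C/EBPb sites shared their SMARCA5 peak with a PU.1 peak that did not touch them. The 2967 sites with such a PU.1 neighbour made up 67.0% of the total (65.6 to 68.4%), and the other 1459 sites, 33.0%, lay in SMARCA5 peaks with no PU.1 call. Of sites with a neighbour, 2079 had 1 PU.1 peak in the SMARCA5 peak, 713 had 2, 149 had 3 and 26 had 4 or more, with 6 the most. The share with a neighbour ran from 60.6% on chromosome 18 to 72.6% on chromosome 11, and was 61.1% on chromosome X. Every chromosome thus held more sites with a PU.1 neighbour than without. This majority is not shown to be an excess of PU.1, which is common in SMARCA5 peaks. SMARCA5 peaks with these sites held 0.210 PU.1 peaks per kb, against 0.300 over the SMARCA5 list on the same chromosomes. The rule leaves out C/EBPb peaks at PU.1, but 970 of the 4218 SMARCA5 peaks with these sites also held such a peak. SMARCA5 peaks with these sites were also wider, with a median of 3701 bp against 2553 bp over the list. What part the rule or the width takes in the lower value was not tested. The number of sites and the share with a neighbour depend on the PU.1 list. With only its upper 50% by fold enrichment, 9039 C/EBPb peaks met the rule and 31.8% of them had a PU.1 neighbour.

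The PU.1 neighbour mostly lay within 2000 bp of the C/EBPb peak. The gap between the edges of the C/EBPb peak and the nearest PU.1 peak in the same SMARCA5 peak had a median of 804 bp (768 to 838), quartiles of 358 and 1522.5 bp, and a range of 2 to 13945 bp. Between summits, the positions of highest signal, the median distance was 1288 bp (1253 to 1322) and the shortest was 314 bp. Gaps of up to 100 bp were found at 147 sites and gaps over 100 and up to 250 bp at 336. The classes up to 500, 1000 and 2000 bp held 528, 732 and 737 sites. A gap over 2000 and up to 5000 bp was found at 449 sites and a longer one at 38. PU.1 lay at the lower coordinate for 1505 of the 2967 sites, 50.7% (48.9 to 52.5%), close to an even split. At 90 sites, 3.03%, a PU.1 peak outside the SMARCA5 peak was nearer than the one inside it.

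By fold enrichment, the strength of the C/EBPb peak changed little with the distance to PU.1. The authors' fold enrichment, the ratio of signal over local background, had a median of 9.79 at gaps of up to 100 bp, 10.9 at gaps over 100 and up to 250 bp, 10.7 at gaps over 1000 and up to 2000 bp and 10.2 beyond 5000 bp. The -log10 q, the authors' significance value, varied more, with medians of 47.8, 55.7, 59.8 and 43.7 in the same classes. In the remaining classes it was 53.8 to 54.9. What did go with the gap was the width of the SMARCA5 peak, whose median was 3649 bp for gaps of up to 100 bp, 4874 bp for gaps over 1000 and up to 2000 bp, and 12312.5 bp for those over 5000 bp. A long gap within 1 SMARCA5 peak needs a wide peak by construction.

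Sites without a PU.1 neighbour were not far from PU.1 in the genome. Their nearest PU.1 peak anywhere was at a median of 4440 bp (4219 to 4689), with quartiles of 2682.5 and 8533.5 bp. C/EBPb peaks that overlapped none of the other proteins, 7479 in number and called C/EBPb alone below, had a median of 5359 bp (5181 to 5566) and quartiles of 2154 and 12070 bp. PU.1 lay within 1000 bp of 2.12% of the sites without a neighbour and of 12.3% of C/EBPb alone. Within 10000 bp the order was the other way round, at 80.0% (77.9 to 82.0%) against 69.8% (68.8 to 70.8%). The low share at short range follows from the split, which puts any site with PU.1 in its SMARCA5 peak into the other group. Over all 4426 sites, PU.1 lay within 1000 bp of 40.3% and within 10000 bp of 93.4%. Only 23 sites, 0.520%, were more than 50000 bp from PU.1, against 4.97% of C/EBPb alone.

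**Figure D1:**
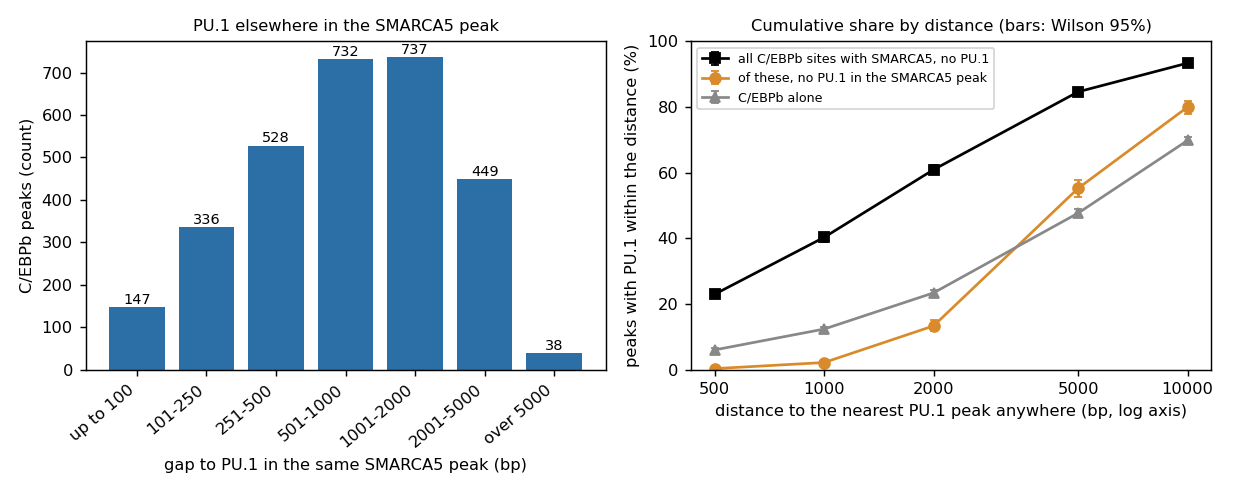
Left, number of C/EBPb sites by the gap in bp to the nearest PU.1 peak in the same SMARCA5 peak, with the count above each bar. Right, share of peaks in percent with a PU.1 peak anywhere within the distance on the log axis, for all 4426 sites, for the 1459 without PU.1 in the SMARCA5 peak and for C/EBPb alone (bars, Wilson 95% intervals); the lines of the last 2 classes cross between 2000 and 5000 bp.

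Strength was also compared on either side of the limits that define these sites. The smallest overlap with SMARCA5 was 1 bp, and 32 sites had at most 50 bp in it, with a median fold enrichment of 9.38. C/EBPb alone came within 50 bp of a SMARCA5 peak in 42 cases, with a median of 10.5. For PU.1, 69 sites lay within 50 bp of a PU.1 peak and had a median of 10.3, while 75 C/EBPb peaks with SMARCA5 and without CTCF shared at most 50 bp with PU.1 and had 9.82. By -log10 q the medians in the same order were 46.1 and 55.3 at the SMARCA5 limit, and 50.0 and 43.8 at the PU.1 limit.

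The nearest neighbours were 2842 different PU.1 peaks, and 773 of them, 27.2% (25.6 to 28.9%), overlapped another C/EBPb peak. Among the other 30675 PU.1 peaks in SMARCA5 peaks, 12712 did, or 41.4% (40.9 to 42.0%). These shares are not on the same footing and give no comparison: a SMARCA5 peak enters the first set through a C/EBPb peak that does not touch PU.1, so a neighbour with C/EBPb needs a further C/EBPb peak there, while for the other PU.1 peaks the only one is enough. Neighbours with their own C/EBPb peak had a median PU.1 fold enrichment of 15.9 and a -log10 q, the authors' significance value, of 167. Those without had 11.2 and 69.2. Elsewhere in SMARCA5 peaks the corresponding PU.1 medians were 13.6 and 107 with C/EBPb, and 10.7 and 59.3 without. In both settings PU.1 peaks that carried C/EBPb had the higher medians.

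Some SMARCA5 peaks held a PU.1-free C/EBPb site and a C/EBPb peak at PU.1 together. This applied to 1008 of the 2967 sites with a neighbour, 34.0% (32.3 to 35.7%). The summits of the C/EBPb peaks lay a median of 1591 bp apart (1512 to 1671). Their strengths were close: the PU.1-free peak had a median fold enrichment of 9.26 (8.83 to 9.56) and the peak at PU.1 had 8.90 (8.54 to 9.23). The PU.1-free peak was the one with the higher fold enrichment in 520 of the 1008 pairs, 51.6% (48.5 to 54.7%), and with the higher -log10 q in 542, 53.8% (50.7 to 56.8%). The remaining 1959 sites with a neighbour, which had PU.1 but no C/EBPb peak at PU.1 in the SMARCA5 peak, had a median fold enrichment of 11.4 (11.1 to 11.7). By -log10 q the medians were 54.5 (51.7 to 57.5) for these and 55.2 (52.1 to 59.5) for the 1008, with overlapping intervals.

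Compared with C/EBPb alone, these sites were lower by fold enrichment and higher by -log10 q. The median fold enrichment was 11.0 (10.8 to 11.2) over the 4426 sites and 12.1 (12.0 to 12.3) for C/EBPb alone, and the median -log10 q was 54.9 (53.2 to 56.6) against 44.9 (43.8 to 45.8). The 12319 C/EBPb peaks with PU.1 and SMARCA5 but no CTCF had medians of 11.5 and 52.8. Split by PU.1, the median fold enrichment was 10.5 (10.3 to 10.7) for sites with a PU.1 neighbour and 12.3 (11.9 to 12.6) for sites without. The median -log10 q was 54.9 (53.0 to 57.0) and 54.5 (51.1 to 57.8), with overlapping intervals. By fold enrichment only the sites with a neighbour had a median below that of C/EBPb alone. The interval of sites without one overlapped that of C/EBPb alone. The upper quartile of fold enrichment was 15.7 both over the 4426 sites and for C/EBPb alone. A fold enrichment over 20 was reached by 584 sites, 13.2%, by 9.72% of C/EBPb alone and by 20.0% of the peaks with PU.1 and SMARCA5.

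The same order against C/EBPb alone was found within groups of the list by either measure, though the outer groups were not closely matched. The C/EBPb list was divided into 5 equal groups by -log10 q, and the fold enrichment of these sites was the lower in each. In the middle group these sites had a median fold enrichment of 10.7 and C/EBPb alone 13.0, at a median -log10 q of 48.8 and 48.3. In the lowest group the fold enrichments were 6.78 and 7.81, and in the highest 21.1 and 22.6. The median -log10 q in that highest group was 261 for these sites and 210 for C/EBPb alone. When the list was divided by fold enrichment instead, the -log10 q was higher for these sites in each of the 5 groups. It went from 20.8 against 16.1 in the lowest to 278 against 159 in the highest. In that highest group the fold enrichment of these sites was also the higher, at 22.6 against 21.3. The median width of the C/EBPb peak was 421 bp (418 to 425) over all these sites, 412 bp (410 to 414) for C/EBPb alone and 471 bp (468 to 474) for peaks with PU.1 and SMARCA5.

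**Figure D2:**
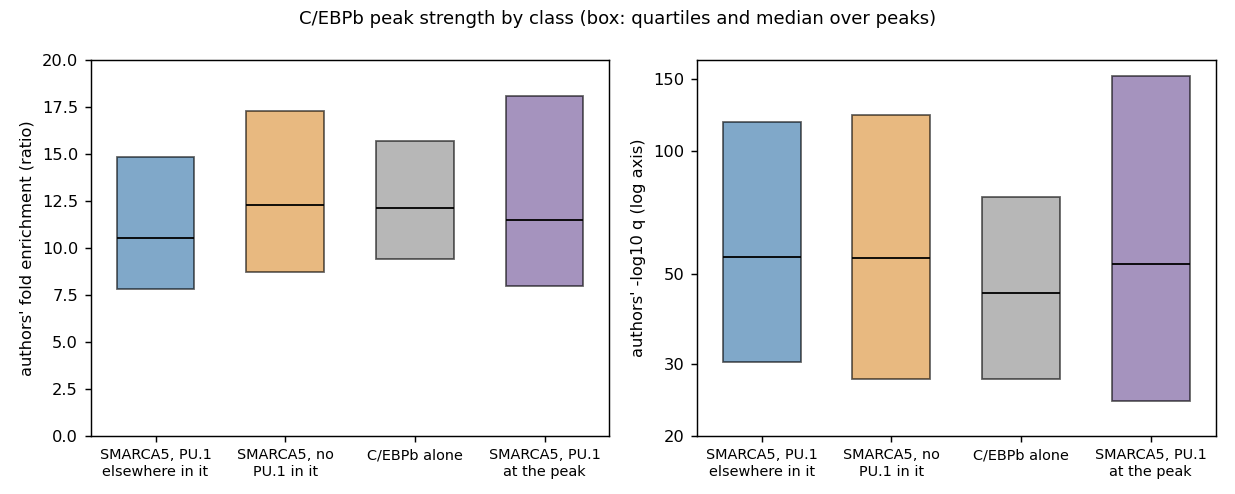
The authors' fold enrichment (left, linear axis) and -log10 q (right, log axis) of C/EBPb peaks in 4 classes; boxes span the quartiles over peaks and the line is the median. By fold enrichment the sites with PU.1 elsewhere in the SMARCA5 peak have the lowest median, 10.5, and by -log10 q C/EBPb alone does, 44.9.

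Of the 11905 C/EBPb peaks that touched neither PU.1 nor CTCF, SMARCA5 was found most often at both ends of the range of fold enrichment. The share with SMARCA5 was 54.1% (51.9 to 56.3%) in the lowest of the 5 groups, 36.6%, 30.5% and 30.1% in the following groups, and 41.3% (39.0 to 43.6%) in the highest. By -log10 q the highest group stood out, with 55.9% (53.5 to 58.3%) against 30.5 to 37.7% in the other groups. Sites of lower fold enrichment more often had a PU.1 neighbour. From the lowest to the highest group by fold enrichment, the share of these sites with a PU.1 neighbour went from 74.6% through 69.9, 66.3 and 63.8% to 57.1%. By -log10 q it stayed between 63.6% and 68.4%.

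The SMARCA5 peaks that held these sites had a higher median width than the SMARCA5 list. They numbered 4218, and their median width was 3701 bp (3614 to 3766) against 2553 bp (2532 to 2573) for all 37054 SMARCA5 peaks on the same chromosomes. The 2800 with PU.1 had a median of 4489.5 bp (4385 to 4594) and the 1418 without had 2201 bp (2135 to 2291). SMARCA5 peaks with C/EBPb at a PU.1 peak and none of these sites had 3088 bp, and those with PU.1 but no C/EBPb had 2462 bp. A wide peak has more room for a further peak, and width and the presence of PU.1 cannot be told apart here. Fold enrichment of SMARCA5 differed little, with medians of 2.02 with PU.1, 2.07 without and 2.08 over the list. The median -log10 q of SMARCA5 was 4.14 with PU.1, 3.53 without and 3.85 over the list.

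Wider SMARCA5 peaks held PU.1 more often, and the shares spanned a larger range in peaks with these sites than in SMARCA5 peaks without C/EBPb. Of those up to 1000 bp wide, 10 of 202 held PU.1, 4.95% (2.71 to 8.87%), against 37.0% of SMARCA5 peaks without C/EBPb. The shares were 29.1% and 52.3% at widths over 1000 and up to 2000 bp, and 71.8% and 71.7% from 3000 to 4000 bp. From 4000 to 5000 bp the order was reversed, at 81.8% (78.5 to 84.7%) and 77.5% (75.3 to 79.5%). Above 5000 bp the shares were 91.3% (89.6 to 92.7%) and 77.4% (75.3 to 79.4%). The rule leaves out any C/EBPb peak that shares a base with PU.1, and its part in the low shares of narrow peaks was not tested. The set without C/EBPb is lowered by construction. It leaves out 11810 SMARCA5 peaks with C/EBPb at PU.1 and none of these sites, all of which hold PU.1. The reversed order in wide peaks is therefore not read as an excess of PU.1.

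**Figure D3:**
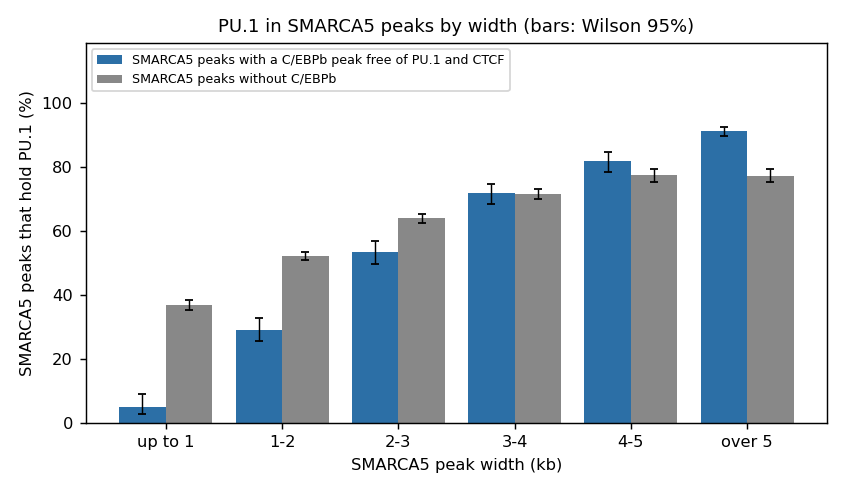
Share in percent of SMARCA5 peaks that hold a PU.1 peak, by SMARCA5 width in kb, for the 4218 peaks with the C/EBPb sites described here and for SMARCA5 peaks without C/EBPb (error bars, Wilson 95% intervals). The bars meet at 3 to 4 kb and the order is opposite on either side. The set without C/EBPb leaves out SMARCA5 peaks with C/EBPb at PU.1.

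Most SMARCA5 peaks held 1 such site: 4016 held 1, 193 held 2 and 9 held 3. Conversely, 3 sites overlapped more than 1 SMARCA5 peak. CTCF was present elsewhere in 593 of the 2800 peaks with PU.1, 21.2%, and in 153 of the 1418 without, 10.8%, which leaves 1265 SMARCA5 peaks where C/EBPb was the only one of the 3 factors called. These had a median width of 2160 bp. Over the whole SMARCA5 list 25.5% of peaks held CTCF. The nearest CTCF peak was a median of 15517.5 bp from these sites, 17165 bp from peaks with PU.1 and SMARCA5 and 22792 bp from C/EBPb alone. Another C/EBPb peak lay within 10000 bp of 61.8% of these sites (60.4 to 63.3%), of 54.2% of the peaks with PU.1 and SMARCA5, and of 39.2% of C/EBPb alone.

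Within the SMARCA5 peak, sites without a PU.1 neighbour sat more often towards the middle and sites with one were spread almost evenly. The summit was inside the SMARCA5 peak for 4221 of the 4426 sites, 95.4%. Of these, 55.4% (53.9 to 56.9%) were in the inner 50% of the peak, where even placement would put 50%. With a PU.1 neighbour the share was 52.0% (50.1 to 53.8%), and without it was 62.5% (59.9 to 65.0%). C/EBPb peaks with PU.1 and SMARCA5 had 67.6% (66.7 to 68.4%). In the outermost 20% of the way from centre to edge lay 16.4% of summits with a neighbour, 9.28% of those without and 5.83% of those with PU.1 at the peak. A site with a neighbour shares its SMARCA5 peak with a PU.1 peak beside it, and whether this bears on its placement was not tested. SMARCA5 widths differ too, and in bp the sites with a neighbour were farther from both centre and edge. Their median distance to the edge was 1133 bp against 578.5 bp without, and to the centre 1002 against 394.75 bp.

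**Figure D4:**
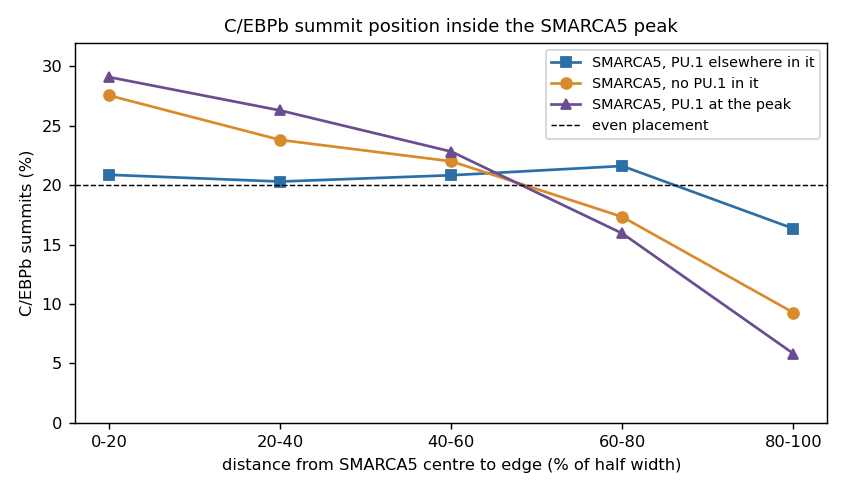
Share of C/EBPb summits in percent by distance from the SMARCA5 centre, in 5 equal steps from centre to edge, for sites with PU.1 elsewhere in the SMARCA5 peak, sites without PU.1 in it, and C/EBPb peaks with PU.1 at the peak; the dashed line is even placement. Sites with PU.1 elsewhere stay near the line except in the outermost step, at 16.4%, while the other classes decline from the centre outwards.

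Where both factors had 1 peak each, PU.1 was more often the central one. In 1221 SMARCA5 peaks with 1 C/EBPb peak, 1 PU.1 peak apart from it and both summits inside, the PU.1 summit was in the inner 50% in 60.0% of cases (57.2 to 62.7%) and the C/EBPb summit in 50.7% (47.9 to 53.5%). The median distance to the SMARCA5 centre was 714.5 bp for PU.1 and 831.5 bp for C/EBPb. C/EBPb was the nearer of the pair in 551 of the 1221, 45.1% (42.4 to 47.9%). Over all 2783 sites with both summits inside, the summits lay on opposite sides of the centre in 55.6% (53.7 to 57.4%). The peaks of a pair share no base by the rule and the PU.1 peak is the nearest one, so this share is not read against 50%.

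The 5 strongest sites with a PU.1 neighbour had gaps of 68 to 2983 bp, each to the only PU.1 peak of the SMARCA5 peak. The leading one, chr4:114827816-114828377, had a fold enrichment of 34.4 and a -log10 q of 1763. Its SMARCA5 peak, chr4:114826738-114832150, held a strong PU.1 peak (chr4:114830376-114830917, 30.4) on the other side of the centre, 1998 bp away. At chr7:67029816-67030385, with a fold enrichment of 33.5, the PU.1 peak was 68 bp away, had 13.1, and both lay in the lower-coordinate part of a SMARCA5 peak of 2658 bp. On chromosome 11, the site at chr11:86494481-86495034 (32.9) had PU.1 at 1082 bp. The fourth, chr5:118545912-118546507 (32.6), lay in a SMARCA5 peak of 7942 bp with PU.1 at 2983 bp. The fifth, chr4:62647352-62647895 (31.7), had PU.1 at 198 bp with a fold enrichment of 24.2. All 5 were the only C/EBPb peak of their SMARCA5 peak, and their widths were 544 to 596 bp.

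The strongest sites without a PU.1 neighbour reached the same level. The first was chr4:114892146-114892718, with a fold enrichment of 34.8 and a -log10 q of 1571, in a SMARCA5 peak of 2025 bp. Its nearest PU.1 peak was 12288 bp away. At chr14:20348111-20348666 (33.2) the C/EBPb summit was 64.5 bp from the SMARCA5 centre and PU.1 was 1244 bp away, outside the SMARCA5 peak. PU.1 was 4403 bp from chr9:44102383-44102957 (33.0), 1848 bp from chr15:5980286-5980862 (32.7) and 2371 bp from chr2:91526476-91527068 (32.4). These SMARCA5 peaks were 1525 to 3431 bp wide, and each held 1 C/EBPb peak and no CTCF.

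The 3 shortest gaps were of 2 bp. One was at chr7:19006350-19006734, with a fold enrichment of 9.01 beside a PU.1 peak of 11.4, and it lay towards the edge of a SMARCA5 peak of 4191 bp. Another, chr1:105853314-105853863, had 8.83 and a weak PU.1 peak of 4.87 that carried its own C/EBPb peak. The last, chr11:31771838-31772177, had 6.36 against 5.66 for PU.1, and its summit distance of 314 bp was the shortest of all. The longest gap, 13945 bp, belonged to chr10:26689922-26690330 in a SMARCA5 peak of 22734 bp that held 2 PU.1 peaks and 3 C/EBPb peaks. Next were chr19:5877846-5878181 with 11524 bp and chr3:122388264-122388595 with 9394 bp. Each of these 3 had a nearer PU.1 peak outside its SMARCA5 peak, at 13097, 4081 and 8262 bp. At all of these 6 shortest- and longest-gap sites the C/EBPb fold enrichment was between 6.36 and 9.01. The 147 sites with gaps of up to 100 bp and the 38 with gaps over 5000 bp had medians of 9.79 and 10.2, so these few say nothing of sites with short or long gaps in general.

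Some sites stood far from any PU.1 call, and the 3 farthest are given. At chr8:37461189-37461676 the nearest was 611418 bp away, the C/EBPb fold enrichment was 24.2, and the summit lay just outside a SMARCA5 peak of 1246 bp. Next were chr10:78933200-78933707, with 21.8 and 309830 bp, and chr10:89980309-89980700, with 14.8 and 192301 bp. All of these had a fold enrichment above the median of 11.0.

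All 9 SMARCA5 peaks with 3 PU.1-free C/EBPb sites also held PU.1. The 3 of highest SMARCA5 -log10 q outside chromosome 18 are given as examples. In chr3:103819412-103825289 the C/EBPb peaks had fold enrichments of 11.2, 4.38 and 4.39 and the single PU.1 peak, 700 bp from the nearest of them, had 22.4. In chr9:123735911-123744210 they had 7.74, 6.72 and 17.0, and the strongest lay 202 bp from a PU.1 peak of 17.4. The widest, chr19:36911977-36950148, spanned 38172 bp with C/EBPb at 7.67, 18.8 and 9.05, PU.1 at 3 places and 1 CTCF peak.

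**Figure D5:**
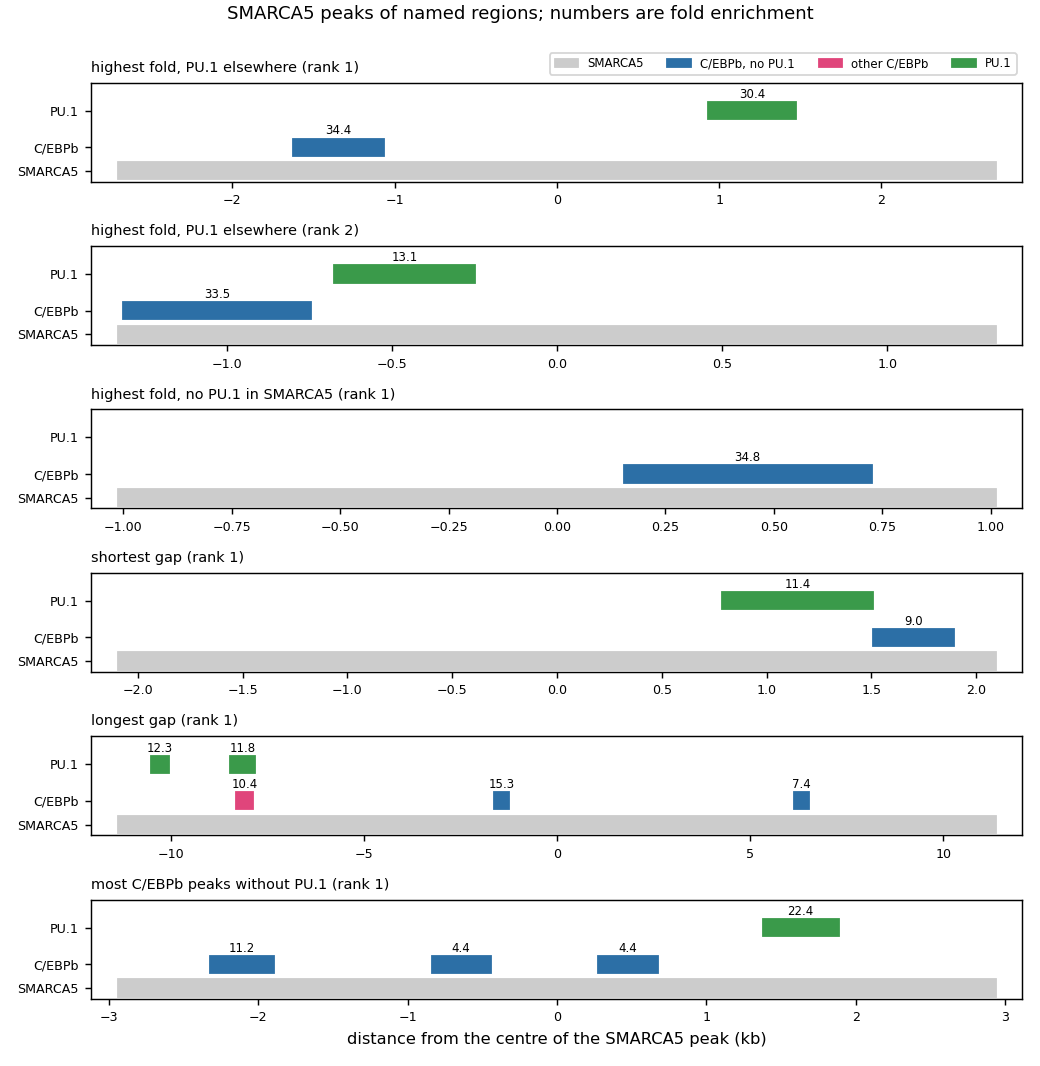
SMARCA5 peaks of 6 of the regions named in the text, drawn to scale in kb from the centre of the SMARCA5 peak, each panel with its own axis range; blue bars are C/EBPb peaks without PU.1, the pink bar another C/EBPb peak, green bars PU.1. The numbers are the authors' fold enrichment of each peak, 34.4 for C/EBPb and 30.4 for PU.1 in the top panel.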

How the data were processed

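The deposited material is 1 consensus peak list each for C/EBPb, PU.1, CTCF (narrow peaks with a summit) and SMARCA5 (broad peaks). The submitters' processing notes name deepTools 3.5.1, MACS2 2.2.7.1, Picard 2.27.4 and STAR 2.7.9a with the build mm39. What each tool did, and when a peak entered a consensus list, is not given in the sources used here. Deposited values per peak are a -log10 q, a score and a fold enrichment, taken here to be the ratio of signal to local background. All are the authors' own and were used only to describe, rank or group peaks within 1 list. H3K27ac libraries were not analysed here.

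Overlaps and gaps were computed with Python 3.11.15, NumPy 2.4.6, pandas 2.3.3 and SciPy 1.17.1, and plots with matplotlib 3.10.9. A gap is the number of bases between 2 peaks. A site that overlapped several SMARCA5 peaks was described with the one it overlapped most. On 6000 simulated C/EBPb peaks the steps returned 100% of the planted classes and gaps, and bedtools 2.31.1 gave the same 4426 sites. No test was run, since no value belongs to a library; peaks are not replicates. The sites were chosen with earlier results of these data known. Named regions are the 5 sites of highest fold enrichment with and without a PU.1 neighbour, the 3 shortest and the 3 longest gaps, the 3 sites farthest from PU.1 and 3 of the 9 SMARCA5 peaks that tie for the most sites, with ties broken by -log10 q and then position; chromosome 18 was left out. Coordinates are 1-based. Gene tables at hand are on GRCm38.p6, so genes, motifs and sequences were not used here.

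Alternatives tried were a minimum overlap set at 50% of the shorter peak, a C/EBPb summit inside SMARCA5, the upper 50% of the SMARCA5, C/EBPb or PU.1 list by fold enrichment, the upper 50% of C/EBPb by -log10 q, no PU.1 within 100 bp, no SMARCA5 peak over 5 kb, and autosomes only.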

Additional observations from a re-analysis of the deposited data

How the results depend on the processing

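Of 54 values (6 results under 9 alternatives), 33 stayed within the interval of the reported value, or within 1.5 times the reported number of sites. The stricter overlap, summit and autosome rules moved none. With the upper 50% of the SMARCA5 list there were 1701 sites, 59.8% had a PU.1 neighbour and the SMARCA5 peaks had a median width of 3193 bp. With the upper 50% of C/EBPb by fold enrichment there were 2006 sites, 61.2% had a neighbour, the median fold enrichment was 16.3, the SMARCA5 width was 3544 bp and 58.1% of summits were in the inner 50%; by -log10 q there were 2440 sites with a fold enrichment of 14.98 and a width of 3769 bp. With only the upper 50% of PU.1, 9039 sites qualified, 31.8% had a neighbour, the median gap was 1050 bp, the width 3505 bp and the inner share 59.6%. Without SMARCA5 peaks over 5 kb, 55.6% had a neighbour, the gap was 597 bp, the fold enrichment 11.4 and the width 2858 bp. With no PU.1 within 100 bp the gap was 848 bp. By construction, a shorter SMARCA5 or C/EBPb list gives fewer sites, a shorter PU.1 list more, and the 5 kb limit narrower SMARCA5 peaks. Causes of the other changes were not tested. The share with a PU.1 neighbour fell below 50% only with the shortened PU.1 list, so this majority depends on how far down that list reaches. No paired analysis was possible because no deposited peak value can be traced to a library, and for the same reason no replicate could be left out. Sequencing depth is unknown, and weak PU.1 sites may have gone uncalled.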

Other observations

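The deposited score had a decimal part of 0.25 or 0.75 for 33.8% of the C/EBPb sites with SMARCA5 and no PU.1, for 21.2% of C/EBPb alone and for 40.3% of C/EBPb peaks with PU.1 and SMARCA5. Over all C/EBPb peaks on the same chromosomes it was 33.4%, close to the share of these sites. Such a decimal cannot come from the mean of 2 whole numbers, but how the score was made is not given in the sources used here. Sites with and without a PU.1 neighbour had 33.2% and 35.0%.

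The leading site with a PU.1 neighbour and the leading site without one were both on chromosome 4, with summits 64329 bp apart, which was noticed after their values were seen. Divided into 5 groups by the fold enrichment of their SMARCA5 peak, the C/EBPb sites had a median fold enrichment of 10.7 in the lowest group and 11.3 in the highest. The share with a PU.1 neighbour was 70.3, 74.4, 70.4, 62.3 and 57.9% from the lowest to the highest group. The median SMARCA5 widths were 4023.5, 4278, 4048, 3472 and 3008 bp in the same order, and both were highest in the second group.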
